A study of Homo sapiens with 6 samples.

Results

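The epithelial-mesenchymal state genes are 10 genes that mark or control where a carcinoma cell lies between an epithelial and a mesenchymal state. They were chosen by name, and all 10 were found among the 25528 gene symbols of the RNA-seq table. There are 4 on the epithelial side (CDH1, EPCAM, ESRP1 and GRHL2) and 6 on the mesenchymal side (VIM, CDH2, ZEB1, ZEB2, SNAI1 and SNAI2). The cells were DU-145/tet-XISTshRNA cells, which are DU-145 prostate cancer cells that carry a doxycycline-inducible shRNA against the long non-coding RNA XIST. Vehicle samples received 0.1% DMSO (n = 3), and DOX samples received 500 ng/ml doxycycline (DOX) for 7 days (n = 3). The shRNA vector was present in both groups after drug selection. No control-shRNA cells given DOX were analysed here, so effects of DOX itself and of the shRNA cannot be told apart. The question put to these genes was whether their RNA levels differed when the XIST shRNA was induced.

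Epithelial cells are held together by E-cadherin at adherens junctions, and mesenchymal cells lose these contacts, gain motility and assemble vimentin filaments. Transcription factors of the ZEB and SNAI families repress CDH1 and other epithelial genes by binding E-box sequences, whereas GRHL2 activates epithelial genes and opposes ZEB1. The ESRP proteins set the epithelial pattern of alternative splicing. Carcinoma cell lines often express genes of both sides, and DU-145 is commonly described as such a line.

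XIST, the target of the shRNA, was listed at 0 in all 6 samples, and so was EIF4A1, a translation factor that all cells use. A listing at 0 in this table therefore does not show that a gene is silent, and silencing of XIST could not be checked here. By the reads recovered from the table, library depth ranged from 5453270 reads on genes in vehicle replicate 3 to 64571054 in DOX replicate 1, and the other samples had between 16701847 and 20354966. The 5 small RNAs RPPH1, RN7SK, RN7SL1, RN7SL2 and RN7SL3 took between 67.5% and 82.6% of the TPM (transcripts per 1000000, a level per transcript length) of a sample. TPM shares a fixed total among genes, so the samples were scaled to each other by the median of ratios over genes, and levels below are scaled TPM unless the deposited TPM is named. Without that scaling, the log2 fold change of the median gene was -0.35, against 0.02 with it. The 6 epithelial carcinoma markers all averaged at least 1 deposited TPM, and their sum was between 359 and 527 in vehicle and between 436 and 470 in DOX. On the scaled TPM, the 4 keratins among them had higher means in DOX, unlike EPCAM and CDH1, the other markers of this list. KRT7 was at 143 ± 31.5 in vehicle and 211 ± 42.1 in DOX, KRT8 at 64.8 ± 12.4 and 95.7 ± 18.2 and KRT19 at 57.0 ± 11.3 and 87.6 ± 20.6 (SD, n = 3 each), each without overlap between the groups, and KRT18 at 85.8 ± 17.7 and 107 ± 13.7 with overlap. Among genes with a mean of at least 1 scaled TPM, 10.9% had DOX samples all above vehicle samples. On the deposited TPM, all 4 keratins overlapped between the groups. The means there were 167 in vehicle and 180 in DOX for KRT7, 76.6 and 82.2 for KRT8, 68.4 and 74.6 for KRT19, and 104 and 92.1 for KRT18. GC content was 62.0% for KRT7, 61.8% for KRT19, 59.3% for KRT8 and 58.2% for KRT18, against 44.3% for EPCAM and 48.2% for CDH1. The keratins were not examined with a correction for GC content, so its part in this contrast was not tested. The part of the keratins in the results below was not tested. The 7 fibroblast markers summed to at most 0.817 TPM in any sample, the 5 leukocyte markers to at most 1.00 and the 4 endothelial markers to at most 0.0833. In bulk samples like these, fewer cells of a type and less RNA per cell cannot be told apart.

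VIM was by far the most abundant member, and the epithelial surface and junction genes EPCAM and CDH1 came next. Mean levels over the 6 samples were 355 scaled TPM for VIM, 14.7 for EPCAM, 8.80 for CDH1, 3.76 for ZEB1, 3.49 for SNAI1, 1.30 for ESRP1, 1.14 for SNAI2 and 0.344 for ZEB2. VIM lay above the 99th percentile of detected genes in every sample, whereas ZEB2 lay between the 14.2 and 23.9 percentiles. The order from VIM to EPCAM to CDH1 to ZEB1 held in 6 of 6 samples. ZEB1 and SNAI1 did not differ beyond their spread, with ZEB1 the higher of the pair in 3 of 6 samples. ESRP1 and SNAI2 also overlapped, with ESRP1 the higher in 4 of 6 samples. GRHL2 was near the limit of detection, and CDH2 was listed at 0 in all samples. These cells therefore contained RNA of epithelial and mesenchymal members in the same cultures, and which cells of a culture held which RNA was not measured.

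**Figure D1:**
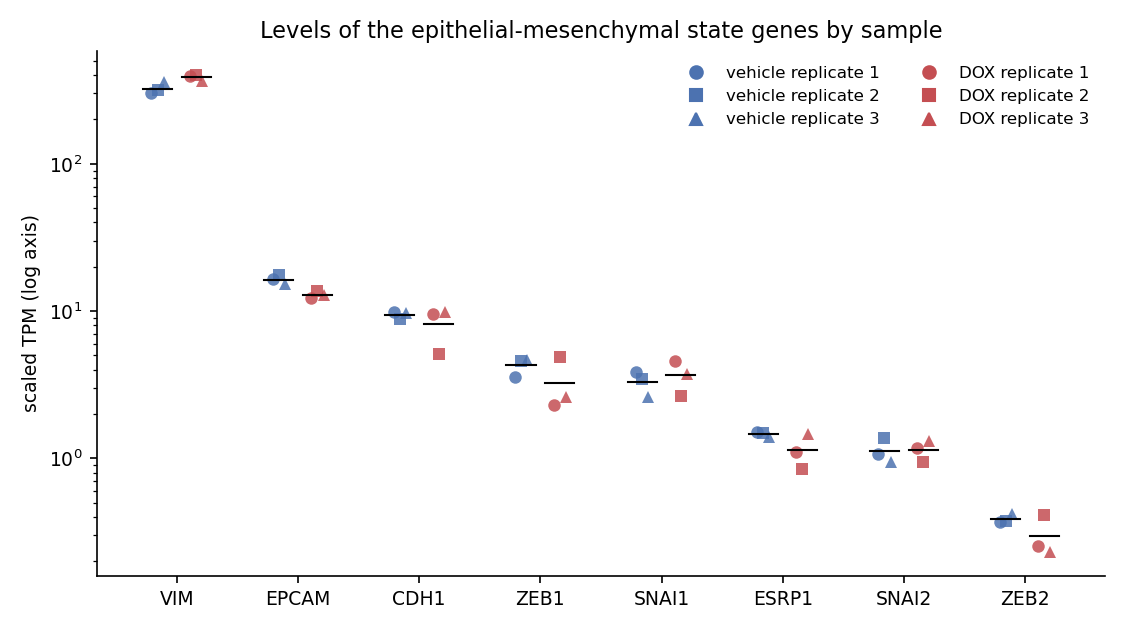
Scaled TPM on a log axis (vertical) of 8 members (horizontal) in each of 3 vehicle and 3 DOX samples; symbols mark replicate numbers and black bars the group means. VIM lies more than 10 times above EPCAM in every sample, the groups are separate for VIM and EPCAM, and CDH1 of DOX replicate 2 and ZEB1 of DOX replicates 1 and 3 lie apart from the other samples. GRHL2 and CDH2, which were at 0 in some or all samples, are not drawn.

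None of the 7 members that could be tested differed between DOX and vehicle at the threshold used, an adjusted p under 0.05 and a fold change over 1.5 by limma. The same holds for the table as a whole in this fit, since 0 of 11595 genes, or 0%, were called. The count for the members is thus that of the background. Some other fits, given below, did call genes. The study itself reported genes lower and genes higher in XIST-silenced DU-145 cells with DESeq2, a count model that was not repeated here. Its list of genes shared between XIST silencing and MUC1-C silencing holds CALD1 as lower and KRT19 as higher. No member is in that list. In the limma fit on the scaled TPM, 1 of the 7 members (EPCAM) had an unadjusted p under 0.05, beside 1840 of all 11595 genes (15.9%). By the log2 fold change of this fit, EPCAM differed most among the epithelial members, whereas ESRP1 differed more than EPCAM with a pseudocount of 0.1 (-0.36 against -0.33) and with voom (-0.42 against -0.36). The median log2 fold change of the 7 members was -0.21, beside 0.02 for all genes tested. It rested on DOX replicate 2, without which it was 0.034, beside 0.027 for all genes.

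EPCAM, a surface adhesion protein of epithelial and carcinoma cells, lay lower in DOX in every sample. In the order of the replicate numbers, its level was 16.4, 17.5 and 15.2 scaled TPM in vehicle and 12.3, 13.7 and 12.8 in DOX, an order kept for all members below. The groups did not overlap, and all 3 DOX samples were below the lowest vehicle sample. Among all genes tested, 9.15% had DOX samples all below vehicle samples. The means were 16.4 ± 1.18 and 12.9 ± 0.688 scaled TPM (SD, n = 3 each), a log2 fold change of -0.32 (SE 0.12, 95% interval -0.58 to -0.05) with an adjusted p of 0.281 by limma. The reads behind these values numbered between 176 and 1806 per sample. The gene lies on chromosome 2 (GRCh38, 47345158 to 47387601, plus strand).

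CDH1 encodes E-cadherin, the adhesion molecule of epithelial adherens junctions. It was at 9.91, 8.81 and 9.64 scaled TPM in vehicle and at 9.56, 5.08 and 9.83 in DOX replicates 1, 2 and 3. DOX replicates 1 and 3 lay within the vehicle range, and DOX replicate 2 alone was low. The means were 9.45 ± 0.573 and 8.16 ± 2.67 (SD, n = 3 each), a log2 fold change of -0.24 (SE 0.21, 95% interval -0.70 to 0.23) with an adjusted p of 0.555 by limma. Without DOX replicate 2 the log2 fold change was 0.034. The gene lies on chromosome 16 (GRCh38, 68737292 to 68835537, plus strand).

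ESRP1, which encodes an RNA-binding protein that directs epithelial exon choice, had a low level of 1.499, 1.478 and 1.400 scaled TPM in vehicle and 1.099, 0.848 and 1.459 in DOX. DOX replicates 1 and 2 were below all vehicle samples, and DOX replicate 3 was among them. The log2 fold change was -0.21 (SE 0.14, 95% interval -0.53 to 0.10) with an adjusted p of 0.445 by limma. On recovered reads with a block for the replicate number, it was -0.46 (adjusted p = 0.148, voom), whereas it was -0.11 both with the correction for GC content and length (adjusted p = 0.756, limma) and without DOX replicate 2 (adjusted p = 0.620, limma). The reads numbered 40 in the shallowest sample and 396 in the deepest. ESRP1 lies on chromosome 8 (GRCh38, 94641074 to 94707466, plus strand).

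GRHL2, a transcription factor that maintains epithelial gene expression, was barely detected. The recovered reads numbered 1, 4 and 0 in vehicle and 3, 0 and 1 in DOX, or 9 in all. A count of 0 allows up to 3 reads, which equals 0.104 deposited TPM for vehicle replicate 3 and 0.0207 for DOX replicate 2, and this limit covers counting error only. No difference between the groups was detectable at this depth. GRHL2 lies on chromosome 8 (GRCh38, 101492439 to 101669726, plus strand).

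VIM encodes vimentin, the intermediate filament protein of mesenchymal cells. Its level was 301, 316 and 356 scaled TPM in vehicle and 395, 403 and 362 in DOX. The DOX samples were all above the vehicle samples, although DOX replicate 3 and vehicle replicate 3 lay close together. Among all genes tested, 10.9% had DOX samples all above vehicle samples. The means were 324 ± 28.9 and 387 ± 21.7 (SD, n = 3 each), a log2 fold change of 0.26 (SE 0.13, 95% interval -0.03 to 0.54) with an adjusted p of 0.340 by limma. This direction depended on the scale: on the deposited TPM the means were 390 ± 99.6 in vehicle and 339 ± 65.7 in DOX, a log2 fold change of -0.19 (adjusted p = 0.599, limma). With a correction for GC content and transcript length, it was 0.09 (adjusted p = 0.786, limma). With 5497 to 76897 reads per sample, counting error was small for VIM. The gene lies on chromosome 10 (GRCh38, 17228241 to 17237593, plus strand) and shares 12.7% of its exonic bases with VIM-AS1 on the opposite strand. VIM-AS1 was at 0.943 to 2.45 deposited TPM, and whether reads were counted by strand is not given in the sources used here.

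CDH2 encodes N-cadherin, which replaces E-cadherin in many mesenchymal cells. It was listed at 0 in all 3 vehicle and all 3 DOX samples, and by the example of EIF4A1 no statement on its expression can be drawn from that. EIF4A1 shares 42.1% of its exonic bases with a gene model on the same strand, whereas CDH2 shares 3.58% with one on the opposite strand. Whether such overlap led to either listing at 0 was not tested. A ratio of CDH1 to CDH2 could not be formed. CDH2 lies on chromosome 18 (GRCh38, 27932879 to 28177946, minus strand).

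ZEB1, a zinc finger repressor of CDH1, was at 3.58, 4.61 and 4.63 scaled TPM in vehicle and at 2.30, 4.84 and 2.61 in DOX replicates 1, 2 and 3. DOX replicates 1 and 3 were below all vehicle samples, and DOX replicate 2 was above all of them. The log2 fold change was -0.35 (SE 0.21, 95% interval -0.82 to 0.11) with an adjusted p of 0.400 by limma. Without DOX replicate 2 it was -0.60 (adjusted p = 0.0824, limma). With a correction for GC content and transcript length it was -0.11, and ZEB1 has a GC content of 38.9%, against 54.3% for VIM. The gene lies on chromosome 10 (GRCh38, 31318495 to 31529814, plus strand) and shares 4.58% of its exonic bases with ZEB1-AS1, an antisense transcript at 0.752 to 2.94 deposited TPM.

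ZEB2, the paralogue of ZEB1, had a lower level. It was at 0.371, 0.375 and 0.422 scaled TPM in vehicle and at 0.256, 0.410 and 0.232 in DOX. DOX replicates 1 and 3 were again the lowest samples, and DOX replicate 2 lay within the vehicle range. It was under the expression minimum of 1 scaled TPM and was tested alone. The mean of log2(scaled TPM + 1) differed by -0.10 between DOX and vehicle (p = 0.3, two-sided exact permutation test), and 3 against 3 samples cannot give a p below 0.1. ZEB2 lies on chromosome 2 (GRCh38, 144364364 to 144521057, minus strand), and its antisense transcript ZEB2-AS1 had 2 recovered reads in all.

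The ZEB mRNAs are known targets of the miR-200 family, microRNAs of epithelial cells whose own genes ZEB1 represses. The mature sequences are shown because their seeds, bases 2 to 8 in capitals, define which sites in ZEB1 and ZEB2 they match (RefSeq, GRCh38.p14). They form 2 groups by seed. The group with the seed AAUACUG holds 3 microRNAs.
hsa-miR-200b-3p: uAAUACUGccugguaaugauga
hsa-miR-200c-3p: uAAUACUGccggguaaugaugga
hsa-miR-429: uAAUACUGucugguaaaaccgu
The group with the seed AACACUG holds 2.
hsa-miR-200a-3p: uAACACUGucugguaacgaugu
hsa-miR-141-3p: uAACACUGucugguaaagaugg

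The 3′ UTR of the canonical ZEB1 transcript (2540 bases, GENCODE, GRCh38) held 6 matches to the first seed, CAGTATT, and 3 to the second, CAGTGTT. The 3′ UTR of ZEB2 (5370 bases) held 5 and 4. At least 1 CAGTATT was found in 16.2% and at least 1 CAGTGTT in 18.3% of 19375 canonical 3′ UTRs, searched on the transcript strand only, on which the motifs do not overlap. Among UTRs within 25% of the length of ZEB1, the shares were 25.7% and 27.7%, and among those within 25% of the length of ZEB2 they were 45.2% and 50.6%. The first site of each kind is shown with its flanks, and the match is in capitals.
ZEB1, chr10:31527622-31527650, plus strand: ttttatcttatCAGTATTatcactcttat
ZEB1, chr10:31528035-31528063, plus strand: atcatcagaatCAGTGTTtgtgattgtgt
ZEB2, chr2:144389042-144389070, minus strand: ctaccatacatCAGTATTtttattattat
ZEB2, chr2:144389226-144389254, minus strand: aaaattttgtaCAGTGTTaaggcctaaaa
Such a match describes letters only, and mature microRNAs were not measured in these mRNA libraries. MIR200CHG, the transcript that hosts miR-200c and miR-141 on chromosome 12, was at 1.30, 2.91 and 2.02 scaled TPM in vehicle and 1.14, 0.576 and 2.52 in DOX. These values rest on 1 to 7 reads per sample and overlap between the groups, and MIR205HG was listed at 0 in all samples.

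SNAI1 and SNAI2 encode the repressors Snail and Slug, and neither separated the groups. SNAI1 was at 3.89, 3.44 and 2.61 scaled TPM in vehicle and 4.60, 2.67 and 3.76 in DOX, where DOX replicate 1 was the highest and vehicle replicate 3 the lowest of the 6. The log2 fold change was 0.11 (SE 0.18, 95% interval -0.30 to 0.51) with an adjusted p of 0.773 by limma, and on the deposited TPM it was -0.24. SNAI2 was at 1.07, 1.38 and 0.948 scaled TPM in vehicle and 1.17, 0.943 and 1.31 in DOX, with the samples of both groups interleaved. Its log2 fold change was 0.01 (SE 0.14, 95% interval -0.30 to 0.32) with an adjusted p of 0.979 by limma, and on the deposited TPM it was -0.23. SNAI2 rested on 14 reads in the shallowest sample. SNAI1 lies on chromosome 20 (GRCh38, 49982980 to 49988886, plus strand) and SNAI2 on chromosome 8 (48917598 to 48921740, minus strand).

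The scale on which the samples were compared moved every member. On the deposited TPM without scaling, all 7 tested members had lower values in DOX, with a median log2 fold change of -0.46 beside -0.35 for all genes, and none of the members was called beside 3.01% of all genes. With the replicate number as a block on that scale, 3 of 7 members were called lower, namely EPCAM (log2 fold change -0.73, adjusted p = 0.00277, limma), ZEB1 (-0.69, adjusted p = 0.00296, limma) and CDH1 (-0.64, adjusted p = 0.00795, limma). In that fit 19.1% of all genes were called, and 2217 of the 2232 called genes were lower in DOX. On the recovered reads with the same block, voom called none of the 7 members and 3.60% of all genes. There the log2 fold changes were -0.35 for EPCAM (adjusted p = 0.0621), -0.41 for ZEB1 (adjusted p = 0.0982) and 0.26 for VIM (adjusted p = 0.101).

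**Figure D2:**
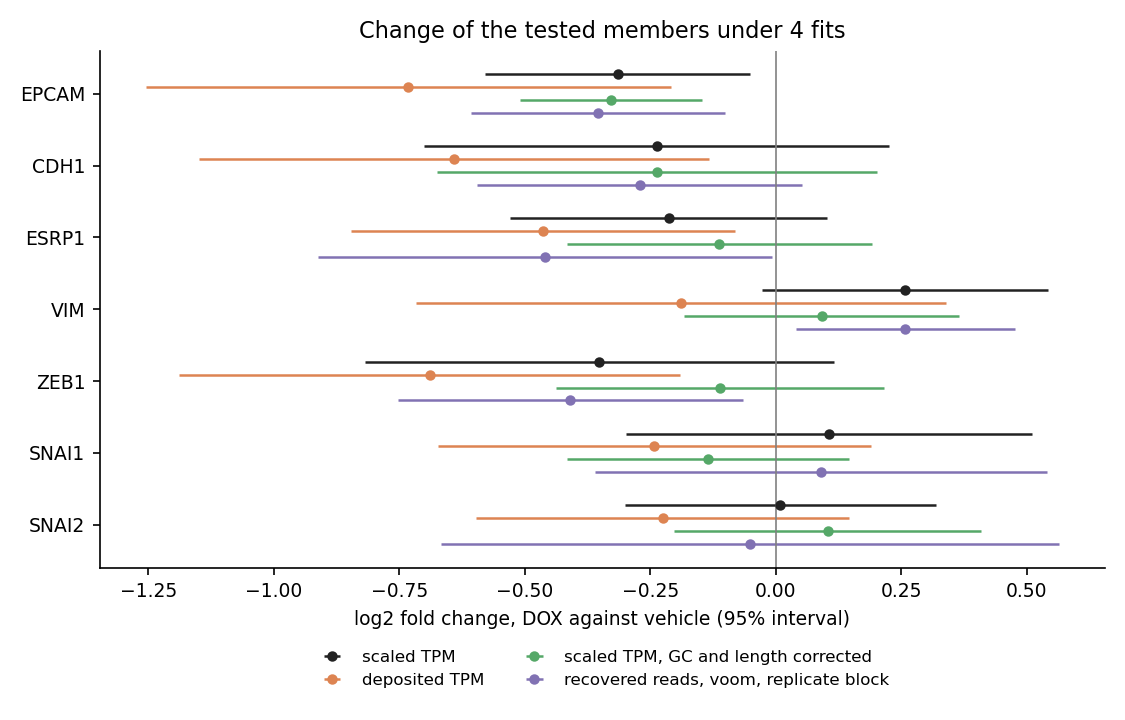
Log2 fold change of DOX against vehicle (horizontal, with 95% intervals) of the 7 tested members (vertical) under 4 fits, given by colour. EPCAM, CDH1, ESRP1 and ZEB1 lie left of 0 under all 4, VIM, SNAI1 and SNAI2 change side with the fit, and the deposited TPM gives the lowest value for each member.

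Ratios of members within a sample do not depend on how samples are scaled. EPCAM was at 5.46%, 5.55% and 4.26% of the TPM of VIM in the vehicle samples and at 3.12%, 3.40% and 3.53% in the DOX samples. All 3 DOX values were below the vehicle values. The log2 ratio was -4.31 ± 0.21 in vehicle and -4.90 ± 0.09 in DOX (SD, n = 3 each), a difference of -0.59, which ranged from -0.72 to -0.53 when a sample was left out. CDH1 was at 3.30%, 2.79% and 2.71% of VIM in vehicle and at 2.42%, 1.26% and 2.71% in DOX. These groups overlapped, and the difference in the log2 ratio, -0.53, ranged from -0.74 to -0.19 when a sample was left out, with the smallest size without DOX replicate 2. ESRP1 was at 41.9%, 32.1% and 30.2% of ZEB1 in vehicle and at 47.8%, 17.5% and 55.8% in DOX. The DOX samples lay on both sides of the vehicle samples, and the difference of 0.07 changed sign when single samples were left out. GC content can still act on such ratios, since it was 44.3% for EPCAM and 54.3% for VIM. With the correction for GC content and length, the log2 fold changes of EPCAM and VIM were -0.33 and 0.09. The ratios were not tested.

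**Figure D3:**
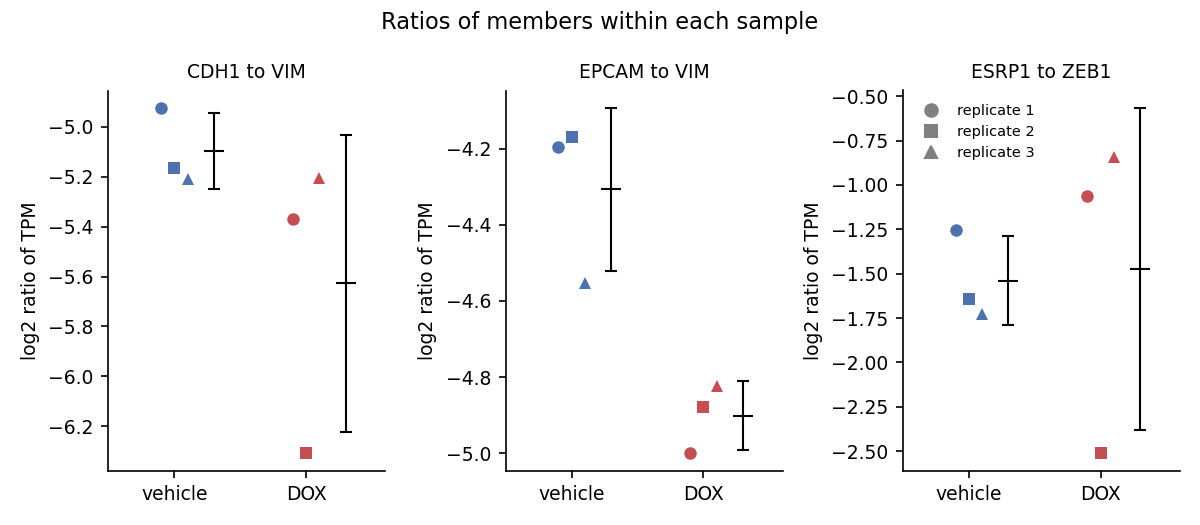
Log2 ratio of deposited TPM between 2 members in each sample (vertical) for vehicle and DOX (horizontal); points are samples, and bars beside them give the mean and SD of 3. Of the 3 ratios drawn, EPCAM to VIM alone separates the groups, and DOX replicate 2 is the lowest point for CDH1 to VIM and ESRP1 to ZEB1.

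DOX samples differed among themselves more than vehicle samples did for CDH1, ESRP1, ZEB1 and ZEB2. Relative to the vehicle mean, DOX replicate 2 had log2 values of -0.89 for CDH1, -0.78 for ESRP1 and -0.25 for EPCAM, beside 0.19 for ZEB1 and 0.32 for VIM. DOX replicates 1 and 3 had 0.02 and 0.06 for CDH1 and -0.89 and -0.70 for ZEB1. CDH1 was thus at the vehicle level in the samples where ZEB1 was low, and low in the sample where ZEB1 was not. The pattern was looked at after the values were seen, and it rests on 1 sample. Some other genes with a GC content near the 38.9% of ZEB1 also had low values in DOX replicates 1 and 3 only. MBNL1 (37.4%) was at 52.5, 90.0 and 58.6 scaled TPM in DOX and 83.6 to 101 in vehicle. SUZ12 (38.2%) was at 20.8, 32.3 and 24.2 in DOX and 28.7 to 35.2 in vehicle. QKI (38.5%) and OCLN (38.8%) did not share this. The part of GC content in these single-sample values was not tested. DOX replicate 2 was the lowest of the 6 samples for 16 of 36 tested genes of the junction and epithelial lists (44.4%), beside 15.2% of all genes tested. DOX replicate 1, the deepest library, was the highest of the 6 for 17 of these 36 genes (47.2%), beside 30.8% of all genes. It was also the lowest for 9 of the 36 (25%), beside 32.2% of all genes. What set DOX replicate 2 apart was not tested.

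**Figure D4:**
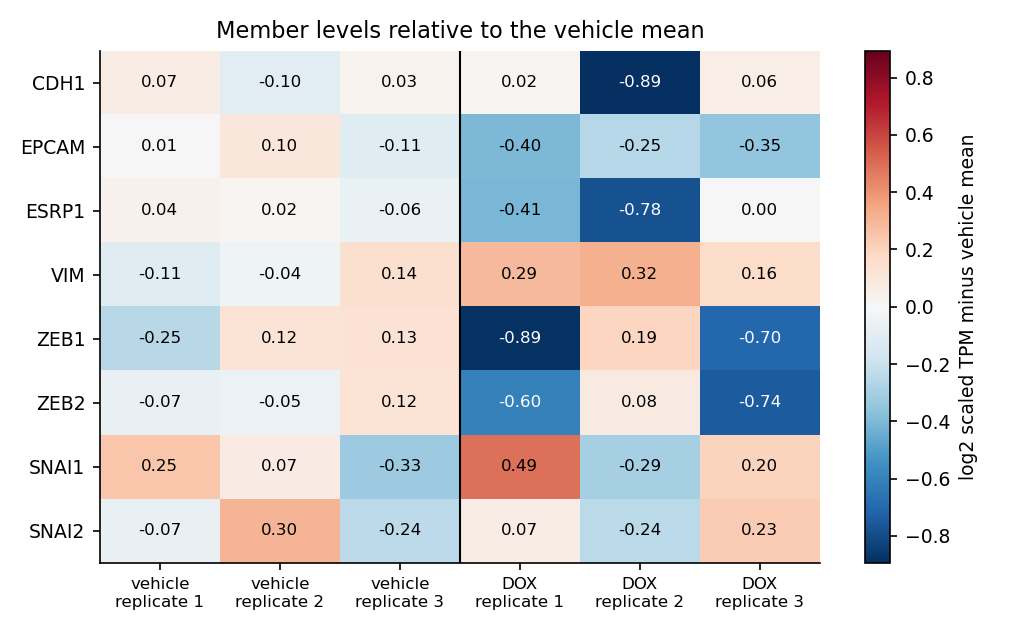
Log2 scaled TPM of 8 members (vertical) in each sample (horizontal) minus the mean of the 3 vehicle samples; red is above and blue below it, and the number in each cell is the value. DOX replicate 2 has low CDH1 and ESRP1 with ZEB1 and ZEB2 near the vehicle mean, whereas DOX replicates 1 and 3 have CDH1 near it and ZEB1 and ZEB2 low.

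The partners of the members were taken as 9 further lists with 113 genes, of which 76 passed the expression minimum and 0 were called on the scaled TPM, beside 0% of all genes. On the deposited TPM 1 of the 76 was called (CALD1), beside 3.01% of all genes. With the block on that scale 16 were called, all lower in DOX, beside 19.1% of all genes. Genes that hold epithelial cells together had both directions on the scaled TPM. Of 8 tested adherens junction partners of cadherins, 4 had lower and 4 higher values in DOX (median log2 fold change -0.02), and CTNNA1 and CTNNB1, the catenins that link cadherins to actin, were at 63.2 and 35.9 scaled TPM in vehicle and 65.1 and 33.3 in DOX. CTNND1, the p120 catenin, was listed at a mean of only 0.2497 scaled TPM, and 39.1% of its exonic bases are shared with an overlapping gene model on the same strand. Of 20 tight junction and desmosome genes, 9 had lower and 11 higher values (median 0.02), with CLDN1 at 77.6 in vehicle and 71.4 in DOX and DSG2 at 75.7 and 58.6. Of 8 epithelial transcription factors and membrane genes, 5 had lower and 3 higher values (median -0.06), with KLF5 at 46.1 in vehicle and 42.1 in DOX. On the deposited TPM with the block, 7 of 8, 19 of 20 and 8 of 8 genes of these lists had lower values, with medians of -0.45, -0.30 and -0.42 beside -0.35 for all genes, and 2, 6 and 1 of them were called lower. The median for the 3 tested epithelial members was -0.24 on the scaled TPM and -0.64 in that fit.

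The mesenchymal lists had medians above that of all genes on the scaled TPM, and below 0 on the deposited TPM with the block, where the median of all genes was -0.35. With the correction for GC content and length, the medians were 0.069 for the effector genes and 0.032 for the transcription factors, beside 0.010 for all genes. Of 10 tested mesenchymal effector genes, 8 had higher and 2 lower values in DOX (median 0.15, and -0.27 on the deposited TPM). AXL, a receptor tyrosine kinase, was at 84.1 ± 9.31 scaled TPM in vehicle and 105 ± 6.29 in DOX, without overlap. Of all genes tested, 10.9% had DOX samples all above vehicle samples. MSN, which links actin to the membrane, was at 87.3 in vehicle and 94.0 in DOX. On recovered reads with the block, 2 of these 10 genes were called by voom in opposite directions, beside 3.60% of all genes. CALD1, which encodes an actin-binding protein, was lower (log2 fold change -0.60, adjusted p = 0.0123), and TAGLN, which encodes another, was higher (1.07, adjusted p = 0.0176). In the scaled TPM fit their log2 fold changes were -0.50 and 0.57, each with an adjusted p of 0.2799 by limma. The 3 tested mesenchymal transcription factors had positive values (median 0.27, and -0.13 on the deposited TPM), with TCF3 at 13.4 scaled TPM in vehicle and 16.7 in DOX, and TWIST1 was listed at 0.

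Among the regulators around the members, no gene was called on the scaled TPM. Of 6 splicing regulators, 4 had lower and 2 higher values in DOX (median -0.19). With the correction for GC content and length, their median was -0.097. MBNL1, which favours splicing patterns of differentiated cells, was at 92.6 ± 8.92 scaled TPM in vehicle and 67.0 ± 20.2 in DOX. PTBP1, a repressor of exon inclusion, was at 65.0 ± 6.08 in vehicle and 84.1 ± 11.6 in DOX, without overlap, beside 10.9% of all genes that separated in this direction. ESRP2, the paralogue of ESRP1, was at 4.18 ± 0.358 in vehicle and 4.61 ± 0.251 in DOX and was more abundant than ESRP1. Of 11 tested corepressors of ZEB and SNAI proteins, 6 had lower and 5 higher values (median -0.01), with HDAC1 at 37.2 in vehicle and 38.2 in DOX and CTBP1 at 27.0 and 34.1. Of 9 genes that degrade or stabilise SNAI proteins, 5 had lower and 4 higher values (median -0.07), with CSNK1A1 at 99.3 in vehicle and 93.8 in DOX and GSK3B, a kinase that marks Snail for degradation, at 31.6 and 25.6. On the deposited TPM with the block, all 6 splicing regulators, 11 corepressors and 9 genes of the SNAI list had lower values (medians -0.59, -0.44 and -0.33). Of them 3, 1 and 1 were called, MBNL1 and GSK3B included. In that fit the median of all genes was -0.35, and 19.1% of all genes were called.

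**Figure D5:**
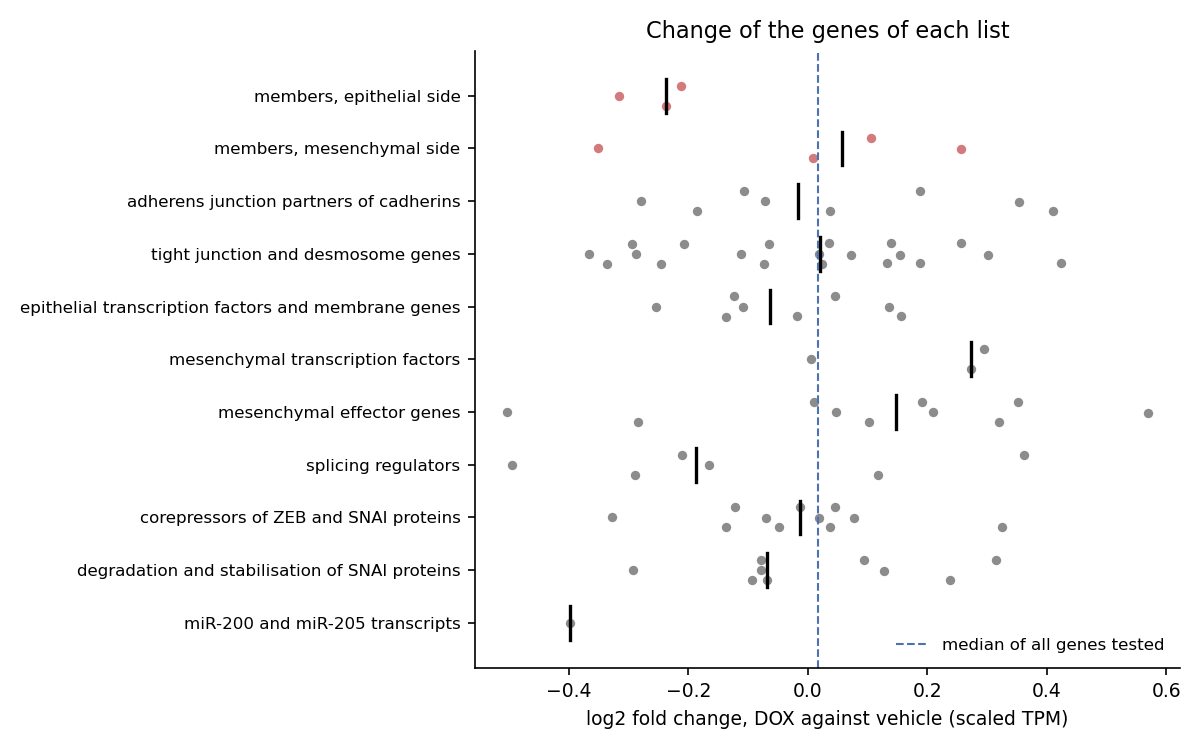
Log2 fold change of DOX against vehicle on the scaled TPM (horizontal) of the tested genes of each list (vertical); points are genes, black lines list medians and the dashed line the median of all genes tested (0.02). Members are in red, and no gene shown passed the test.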

How the data were processed

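The RNA-seq libraries of 3 vehicle and 3 DOX samples were grouped by the sample labels. The days of treatment come from the study's figure legends. The study's methods give triplicate cultures for RNA-seq and state at least 3 independent biologic replicates for its experiments in general. How separately these cultures were set up is not described further, so p-values measure the spread between these samples. The members and gene lists were chosen with earlier results of these data known. Per the labels and methods, libraries were made with a stranded mRNA kit and aligned to GRCh38 with STAR, and the authors deposited a TPM value for each gene symbol. The STAR version and how reads were counted per gene, by strand or not, are not given in the sources used here. Their second table holds fold changes, p-values and a mean normalized count from a count model of DOX against vehicle. Only the mean normalized count, a signal averaged by the authors over all samples, was used.

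TPM was divided by median-of-ratios factors over genes above 0 in all samples, because the small RNAs moved the deposited scale between samples. Genes with a mean scaled TPM of at least 1 (11595) were fitted with limma 3.58.1 (R 4.3.3) on log2(scaled TPM + 1), with a variance trend, and p-values were adjusted by Benjamini-Hochberg over all of them. A pseudocount of 1 understates changes of low genes. ZEB2, under the minimum, had an exact permutation test, and GRHL2, near 3 reads, had none. Named genes were the 10 members, the 2 most abundant genes of each further list and any gene called; CALD1, TAGLN, CTNND1, TWIST1 and ESRP2 were named after their values were seen. Some genes that this rule names, and the luminal prostate markers, are not reported here.

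Reads were recovered from TPM and the mean normalized count, and 96.6% of 38587 values under 100 reads came out whole within 0.05 reads, against 10% by chance. They were used for depth and for voom. GC content and length came from GENCODE canonical transcripts (93.0% of tested genes matched) and were corrected with splines of 5 degrees of freedom. After subtraction of group means, vehicle and DOX samples of one number were correlated over genes (r = 0.559, 0.260 and 0.187 for numbers 1, 2 and 3), although vehicle replicate 2 also correlated with DOX replicate 3 (r = 0.220). Every matched pair exceeded 0.1, so the numbers were taken as pairs and the block was fitted as an alternative. The unmatched pair of vehicle replicate 2 and DOX replicate 3 exceeded 0.1 too, so this rule does not single out the matched pairs. The pairing rests on these correlations alone. Limma and voom without the block, and the recovery, were tried on simulated data, and the outcomes are not reported here. The fits with the block were not tried in this way. No pair of samples held identical values. Python 3.11.15, pandas 2.3.3 and matplotlib 3.10.9 were used.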

Additional observations from a re-analysis of the deposited data

How the results depend on the processing

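The scaled TPM fit called 0 genes of the whole table and 0 of 7 members, and 15 alternatives were run. The deposited TPM called 351 genes, the deposited TPM with the replicate block 2232, voom on recovered reads 1 and voom with the replicate block 417. The replicate block on the scaled TPM, the pseudocount of 0.1, the missing filter and the correction for GC content and length called 0. Leaving out a sample called between 0 and 16 genes (16 when vehicle replicate 1 was left out, 7 for DOX replicate 2 and 1 for DOX replicate 1) and 0 members. Members were called under 1 alternative, the deposited TPM with the replicate block, which called 3.

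EPCAM (-0.73 to -0.27), ZEB1 (-0.69 to -0.11) and ESRP1 (-0.46 to -0.11) had negative log2 fold changes under all 15 alternatives. CDH1 reversed without DOX replicate 2 (0.034). VIM reversed on the deposited TPM with or without the block (-0.19). SNAI1 reversed on the deposited TPM (-0.24), with the GC and length correction (-0.14), each with and without the block, and without vehicle replicate 3 (-0.017) or DOX replicate 1 (-0.035). SNAI2 reversed on the deposited TPM (-0.23, with and without the block), with voom (-0.042, and -0.052 with the block) and when samples were left out (-0.053 to 0.090). Leave-one-out ranges were -0.38 to 0.034 for CDH1, -0.035 to 0.27 for SNAI1, -0.16 to -0.06 for ZEB2 and -0.25 to 0.59 for the log2 ratio of ESRP1 to ZEB1. The causes were not tested. On the scaled TPM, the replicate block changed no call. With 5453270 reads, vehicle replicate 3 limits SNAI2, GRHL2 and MIR200CHG.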
